A study of Drosophila melanogaster with 16 samples.

Results

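The proteasome subunit genes of Drosophila melanogaster were followed through an Imp knockdown in S2 cells. Members were taken by name alone: a gene belonged to the set if its symbol in the authors' table began with Prosalpha, Prosbeta, Pros and a digit, Rpn and a digit, or Rpt and a digit. This gave 31 genes of the 9977 in the count table. They comprise 27 subunits of the complex itself, with 6 in the alpha ring, 6 in the beta ring, 8 in the base and 7 in the lid, and 4 related copies of such subunits. Of the symbols, 8 have since been replaced, namely Pros25 (now Prosalpha2), Pros29 (Prosalpha3), Pros28.1 (Prosalpha4), Pros35 (Prosalpha6), Pros26 (Prosbeta6), Pros26.4 (Rpt2), Pros45 (Rpt6) and Pros54 (Rpn10). The genes are spread over the genome, with 4 on chromosome arm 2L, 7 on 2R, 5 on 3L, 11 on 3R and 4 on the X. Prosalpha1 was not analysed here.

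The cells, S2, are an established embryonic Drosophila line. They received 40 μg/ml dsRNA against the coding region of imp (dsRNA Imp 1/dsRNA Imp 2) or, as the control, against firefly luciferase (dsRNA Luc1), for which flies have no gene. The dsRNA was boosted daily and the cells were harvested on day 3. Poly(A) RNA from 3 experiments per treatment, carried out on different days, was sequenced, so that each replicate number stands for a pair of 1 imp dsRNA and 1 luciferase dsRNA library. Both groups carry dsRNA, and no untreated cells were part of the comparison.

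The proteasome is the large protease that degrades most ubiquitin-tagged proteins of the cytosol and nucleus. Its core is a barrel of stacked rings: outer rings of alpha subunits gate the entry, and inner rings of beta subunits hold the cutting sites. A regulatory particle caps the barrel. The base of this cap contains a ring of ATPases that unfold the substrate and push it inwards, and the lid contains the enzyme that removes the ubiquitin chain. Subunits are needed in fixed proportions, and in flies their genes are known to be raised together by the transcription factor Cnc when proteasome activity is inhibited.

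For replicates 1, 2 and 3 the imp dsRNA libraries totalled 5463535, 1081882 and 1401963 reads in genes, and the luciferase dsRNA libraries totalled 2865083, 2332156 and 2017317. The shallowest library, imp dsRNA replicate 2, still gave each of the 27 subunits between 67 and 416 reads. Transcript levels are given as CPM, counts scaled to a common library size by the TMM method. The Imp transcript itself (FBgn0262735), which checks the labels, stood at 233, 324 and 455 CPM in imp dsRNA libraries, against 660, 738 and 814 CPM in luciferase dsRNA libraries, so the groups did not overlap. The fitted log2 value was -1.18 (standard error 0.18), and the adjusted p was 0.113 (quasi-likelihood test of edgeR, Benjamini-Hochberg adjustment). Of 10 markers of S2 cells and the blood cells they resemble, 9 averaged at least 1 CPM, while nimC1 was near 0. The 10 summed to 2396 to 3072 CPM after imp dsRNA and 2332 to 3363 CPM after luciferase dsRNA, with Nplp2 alone at 1091 to 2483 CPM. Some single markers varied more. Sr-CI stood at 4.15, 21.7 and 112 CPM after imp dsRNA, against 1.82, 8.44 and 58.4 CPM after luciferase dsRNA. Its adjusted p between treatments was 0.843 by the edgeR test. Between days Sr-CI (adjusted p 3.28e-06) and eater (adjusted p 0.00357) passed the edgeR F test, and the other tested markers of these 10 did not. None of the measured markers of crystal cells, lamellocytes, muscle or germ line averaged 1 CPM over the 6 libraries. The listed markers PPO1 (crystal cells) and aly (germ line) were not found by symbol and are not counted here. The 3 neuron markers elav, n-syb and brp summed to 93.4 to 128 CPM after imp dsRNA and 87.9 to 121 CPM after luciferase dsRNA.

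The subunits were all strongly expressed. Levels of different genes are compared here only as CPM per kb of exonic length, averaged over the 6 libraries. On this scale the 27 subunits had a median of 158 CPM per kb, against 20.3 CPM per kb for the 6221 tested genes with a length, and all 27 lay above that median. The lowest of them, Rpn9, exceeded 78.4% of these genes and the highest, Prosalpha5, exceeded 96.1%. Of the 27, 21 were within 2-fold of their own median, and the highest exceeded the lowest 5.79-fold, or 5.29-fold per kb of coding length.

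**Figure D1:**
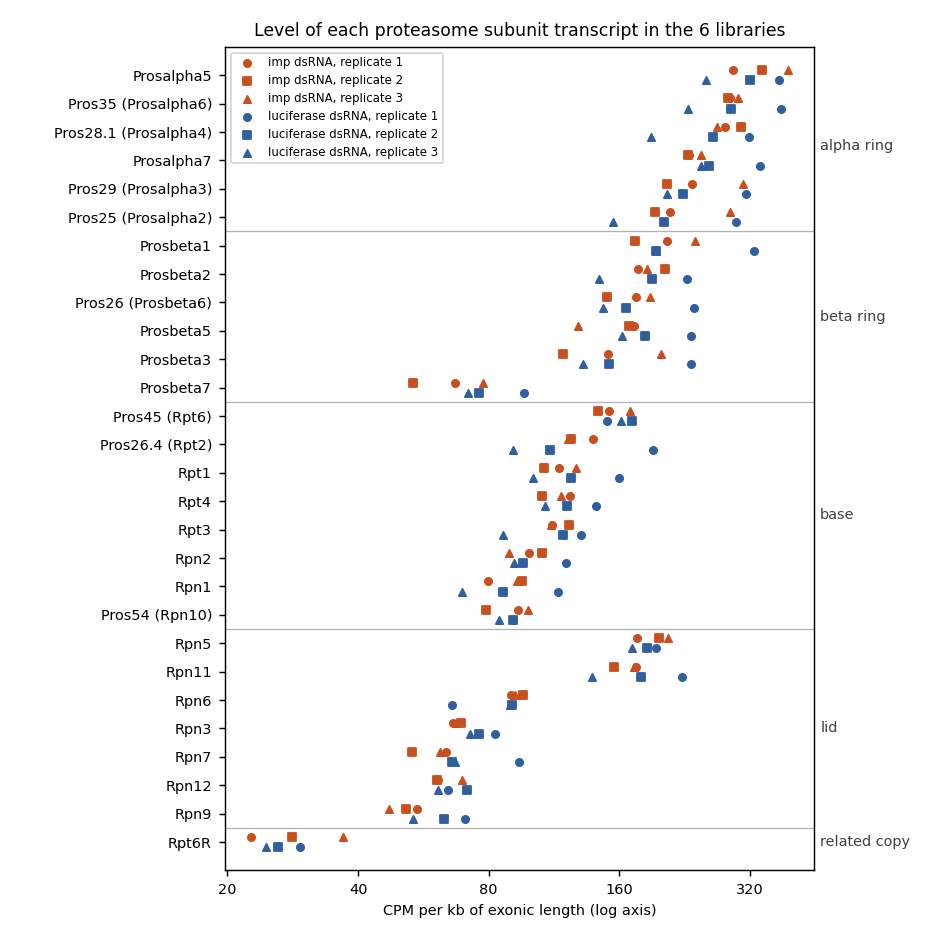
Level of each tested proteasome subunit transcript in CPM per kb of exonic length (log axis), with 1 point per library, imp dsRNA above luciferase dsRNA in each row and replicates marked by shape. Alpha ring transcripts lie highest, at 224 to 329 CPM per kb on average, and luciferase dsRNA replicate 1 is the rightmost point in 21 of the 28 rows.

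Alpha ring transcripts lay highest and closest together. Their averages spanned 224 CPM per kb for Pros25 (FBgn0086134) to 329 CPM per kb for Prosalpha5 (FBgn0016697), a 1.46-fold range, and the ring's median was 265 CPM per kb. Pros25 stood at 209, 193 and 287 CPM per kb after imp dsRNA and at 298, 203 and 155 CPM per kb after luciferase dsRNA. Prosalpha5 stood at 293, 341 and 391 CPM per kb after imp dsRNA and at 373, 320 and 253 CPM per kb after luciferase dsRNA. For both genes the luciferase libraries alone spread more widely than the averages of the ring, and yet Prosalpha5 exceeded Pros25 in each of the 6 libraries.

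The beta ring ranged from 73.6 CPM per kb for Prosbeta7 (FBgn0250746) to 223 CPM per kb for Prosbeta1 (FBgn0010590). Prosbeta7, a structural subunit, stood apart at 66.8, 53.5 and 77.5 CPM per kb after imp dsRNA and at 96.3, 76.1 and 71.7 CPM per kb after luciferase dsRNA, below every other beta subunit in each library. The 3 subunits that cut were near each other. Prosbeta1, the caspase-like site, averaged 223 CPM per kb, Prosbeta2, the trypsin-like site, averaged 188 CPM per kb, and Prosbeta5, the chymotrypsin-like site, averaged 175 CPM per kb. Their libraries overlapped on this scale, from 128.8 CPM per kb for Prosbeta5 to 327 CPM per kb for Prosbeta1.

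The base was the most even subcomplex after the alpha ring, with a 1.76-fold range. Pros45 (FBgn0020369), which encodes the ATPase Rpt6, was highest at 158 CPM per kb, and Pros54 (FBgn0015283), which encodes the ubiquitin receptor Rpn10, was lowest at 89.7 CPM per kb. The 5 ATPase genes of the set ran from 113 to 158 CPM per kb, and the 3 other base genes lay below them, from Pros54 at 89.7 to Rpn2, a large scaffold subunit, at 100.4 CPM per kb.

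The lid was split. Rpn5 (FBgn0028690), a scaffold subunit, at 189 CPM per kb and Rpn11 (FBgn0028694), the enzyme that removes ubiquitin, at 174 CPM per kb lay near the beta ring, whereas the other 5 ran from 56.8 CPM per kb for Rpn9 (FBgn0028691) to 87.4 CPM per kb for Rpn6 (FBgn0028689). The lowest library of Rpn5 or Rpn11, at 139 CPM per kb, exceeded the highest library of those 5, at 96.1 CPM per kb. The lid subunit Rpn8, which stands outside the set under the symbol Mov34, averaged 186 CPM per kb, near Rpn5 and Rpn11. Subunits under other symbols are not in the counts and medians of this paragraph. The median core subunit exceeded the median regulatory subunit by 2.09, 1.88 and 2.46-fold in imp dsRNA replicates 1, 2 and 3 and by 2.54, 2.07 and 1.96-fold in luciferase dsRNA replicates 1, 2 and 3.

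The 4 related copies were scarcely transcribed, apart from Rpt6R. Several such copies are known for their use in the testis. Prosalpha6T and Prosbeta2R2 had 1 read each, both in imp dsRNA replicate 1. Rpt3R, a copy of the ATPase gene Rpt3, had 18, 2 and 1 reads after imp dsRNA, against 3, 5 and 9 after luciferase dsRNA. Scaled to library size, this was 3.25, 1.81 and 0.784 CPM against 1.09, 2.01 and 4.38 CPM. These 3 genes did not pass the filter on low counts and were not tested. Rpt6R (FBgn0039788) had 182, 45 and 68 reads after imp dsRNA, against 117, 94 and 73 after luciferase dsRNA. Scaled to library size, this was 32.8, 40.6 and 53.3 CPM against 42.5, 37.8 and 35.5 CPM. Pros45, the gene Rpt6R resembles, exceeded it by 4.60 to 6.67-fold in CPM per kb. Rpt6R and Rpt3R are close relatives of Pros45 and Rpt3, and their reads are uncertain where a read could match either gene.

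No proteasome subunit passed the test for a difference between imp dsRNA and luciferase dsRNA. Of the 28 members tested, 0 passed edgeR's test at an adjusted p under 0.05, as did 0.0% of the 6526 genes tested, and 0 were called by DESeq2 or limma-voom. At an unadjusted p under 0.05 there were 0 members, against 2.88% of all genes. The fitted log2 fold changes ran from -0.34 to 0.20 with a median of -0.05, where all genes had a median of -0.01, and 17 members had a value below 0, with 51.5% of all genes there. The 95% intervals of the 28 values lay between -0.71 and 0.57. In bulk RNA of this kind, fewer cells with a transcript and less transcript per cell cannot be told apart.

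The smallest p-values among the lower members belonged to Rpn7, Prosbeta5 and Rpn9. Rpn7 (FBgn0028688), a lid scaffold subunit, stood at 89.1, 74.1 and 86.3 CPM after imp dsRNA, against 131, 91.6 and 93.5 CPM after luciferase dsRNA. The groups did not overlap, though luciferase replicates 2 and 3 lay just above the highest imp library and only luciferase replicate 1 stood far above. The log2 fold change of Rpn7 was -0.34 (standard error 0.17, 95% interval -0.70 to 0.02, unadjusted p 0.0646 and adjusted p 0.999 by the edgeR test).

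Prosbeta5 (FBgn0029134), the chymotrypsin-like subunit, stood at 198, 192 and 147 CPM after imp dsRNA, against 267, 209 and 184 CPM after luciferase dsRNA. It was lower in each pair, but the groups overlapped, since luciferase replicate 3 lay below imp replicates 1 and 2. The log2 fold change of Prosbeta5 was -0.30 (standard error 0.16, 95% interval -0.63 to 0.04, unadjusted p 0.0781 by the edgeR test). Rpn9, another lid scaffold subunit, stood at 91.6, 86.7 and 79.2 CPM after imp dsRNA, against 118, 106 and 90.1 CPM after luciferase dsRNA. Here too each pair was lower and the groups overlapped, by a single library. The log2 fold change of Rpn9 was -0.29 (standard error 0.16, 95% interval -0.63 to 0.06, unadjusted p 0.0968 by the edgeR test).

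The smallest p-values among the higher members were larger. Rpn6, the lid subunit that braces the regulatory particle against the core, stood at 175, 187 and 179 CPM after imp dsRNA, against 128, 176 and 174 CPM after luciferase dsRNA. Only luciferase replicate 1 was far from the other 5 libraries, and Rpn6 is the single member for which that library was the lowest, as it was for 24.7% of all genes. The log2 fold change of Rpn6 was 0.20 (standard error 0.16, 95% interval -0.15 to 0.54, unadjusted p 0.241 by the edgeR test). Pros28.1 (FBgn0004066), an alpha ring subunit, stood at 330, 359 and 317 CPM after imp dsRNA, against 375, 310 and 223 CPM after luciferase dsRNA. Its groups overlapped, with luciferase replicate 1 highest and luciferase replicate 3 lowest of all 6. The log2 fold change was 0.17 for Pros28.1 (95% interval -0.20 to 0.54, unadjusted p 0.341 by the edgeR test) and 0.11 for Prosalpha5 (95% interval -0.29 to 0.52, unadjusted p 0.554 by the edgeR test).

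The other catalytic subunits showed the same overlap. Prosbeta1 stood at 175, 148 and 204 CPM after imp dsRNA, against 278, 166 and 166 CPM after luciferase dsRNA, and its log2 fold change was -0.19 (95% interval -0.60 to 0.21). Prosbeta2 (FBgn0023174) stood at 183, 211 and 192 CPM after imp dsRNA, against 237, 196 and 148 CPM after luciferase dsRNA, and its log2 fold change was 0.02 (95% interval -0.35 to 0.40). In both, the luciferase libraries held the highest value.

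Counted by pairs, 5 members were lower after imp dsRNA in all 3, namely Prosalpha7, Prosbeta5, Rpn3, Rpn7 and Rpn9, where 12.2% of all genes were. Rpn6 alone was higher in all 3, where 11.3% of all genes were. In 3 members every imp library lay below every luciferase library, which 3.39% of all genes did, and in 0 every imp library lay above, which 2.8% of all genes did. These 3 were Rpn7, Rpn3 and Prosalpha7. Rpn3 (FBgn0261396), a lid scaffold subunit, stood at 121, 126 and 124 CPM after imp dsRNA, against 152, 139 and 132 CPM after luciferase dsRNA. Prosalpha7 (FBgn0023175), an alpha ring subunit, stood at 226, 225 and 241 CPM after imp dsRNA, against 331, 251 and 241 CPM after luciferase dsRNA. The separation of Prosalpha7 therefore rests on nearly equal values in replicate 3, with a log2 ratio of -0.0036 in that pair. None of the 5 members passed the test.

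What the members did show was a shift in common that differed between the pairs. In pair 1, 25 of the 28 were lower after imp dsRNA, with a median log2 ratio of -0.37, whereas 50.3% of all genes were lower. In pair 2, 18 of the 28 were lower, with a median of -0.13, whereas 50.0% of all genes were lower. In pair 3 the direction turned round, with 6 of the 28 lower and 22 higher, a median of 0.31, whereas 51.2% of all genes were lower. All 12 core subunits were lower in pair 1, with a median of -0.44, and 10 of the 12 were higher in pair 3, with a median of 0.37. The 15 regulatory subunits followed with smaller medians of -0.28 in pair 1 and 0.18 in pair 3, 12 of them lower in pair 1 and 11 higher in pair 3. All 5 ATPase genes of the base were higher in pair 3. Each pair is 1 library against 1, so the difference between the pairs could not be tested, and members of one library are not replicates of each other.

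**Figure D2:**
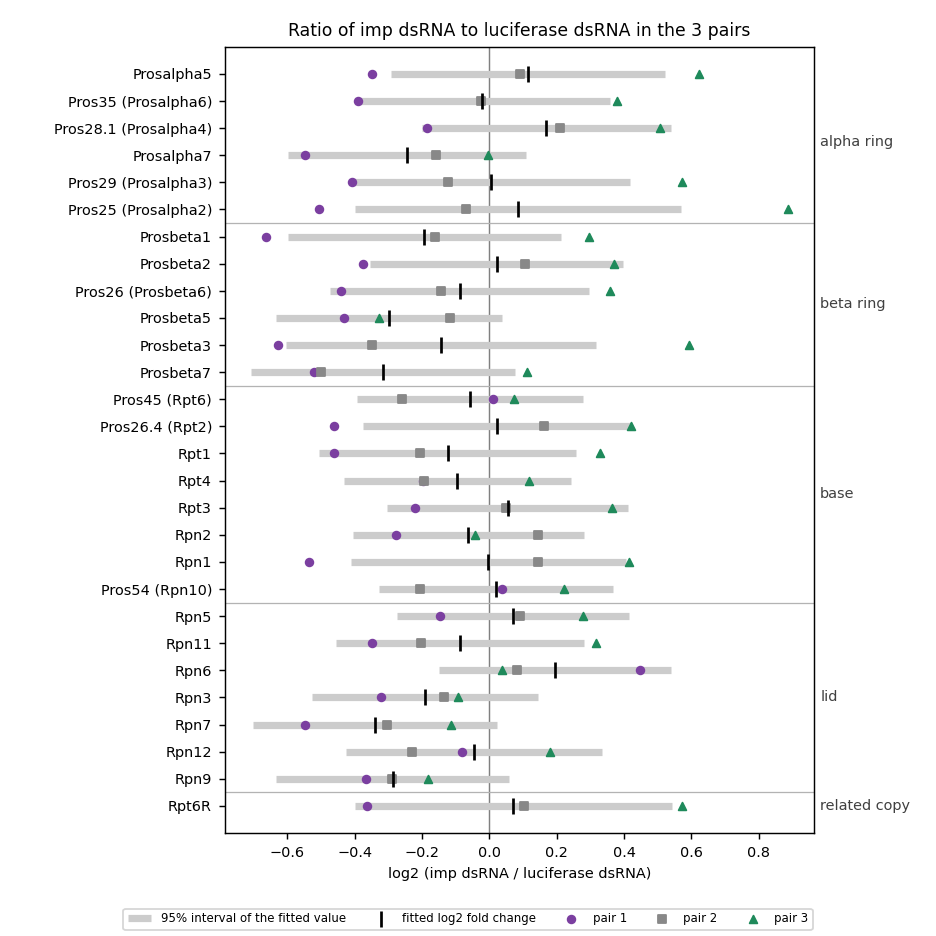
Log2 of imp dsRNA over luciferase dsRNA for each tested subunit in pairs 1, 2 and 3, with the fitted log2 fold change (black tick) and its 95% interval (grey bar). Pair 1 lies left of 0 in 25 of the 28 rows and pair 3 lies right of 0 in 22, so that the fitted values gather near 0, between -0.34 and 0.20.

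The sums show which libraries carried the shift. All 31 members together made up 5304, 5270 and 5705 CPM after imp dsRNA (5426 ± 242, SD, n = 3), against 6721, 5419 and 4688 CPM after luciferase dsRNA (5609 ± 1030, SD, n = 3). The imp libraries were thus close to each other, the highest exceeding the lowest 1.08-fold, and the luciferase libraries were not, at 1.43-fold. The difference of the means was smaller than the spread of the luciferase libraries. Luciferase replicate 1 was the highest of the 6 libraries for 21 of the 28 tested members, as it was for 27.3% of all genes. Luciferase replicate 3 was the lowest for 12 members, as it was for 17.3% of all genes, and imp replicate 2 was the lowest for 10, as it was for 20.6% of all genes.

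The alpha ring summed to 1561, 1588 and 1813 CPM after imp dsRNA, against 2040, 1579 and 1295 CPM after luciferase dsRNA. The beta ring summed to 941, 867 and 998 CPM after imp dsRNA, against 1338, 958 and 846 CPM after luciferase dsRNA. In both rings the luciferase libraries differed more among themselves than the imp libraries did, and their highest exceeded their lowest 1.58-fold. The base summed to 1683, 1674 and 1701 CPM after imp dsRNA, against 2067, 1689 and 1465 CPM after luciferase dsRNA, and the lid to 1083, 1098 and 1139 CPM after imp dsRNA, against 1232, 1153 and 1043 CPM after luciferase dsRNA. The lid sum was the steadiest among luciferase libraries, with a 1.18-fold range. Its genes did not all move together. Over luciferase replicates 1, 2 and 3, Rpn11 stood at 269, 217 and 167 CPM and Rpn6 at 128, 176 and 174 CPM.

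**Figure D3:**
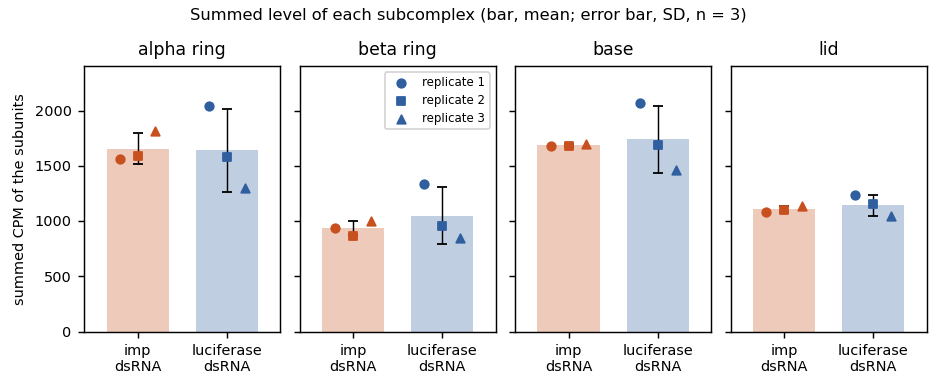
Summed CPM of the subunits of each subcomplex in the imp dsRNA libraries (left bar) and the luciferase dsRNA libraries (right bar), with the mean as the bar, the SD over 3 libraries as the error bar and each library as a point. Luciferase replicate 1 is the highest point and luciferase replicate 3 the lowest in every panel, while the imp libraries stay within 1.16-fold of each other.

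Transcript length moved with the same shift. Across all tested genes, short transcripts had lower ratios in pair 1 and higher ratios in pair 3, and long transcripts the reverse. Genes with under 1 kb of exonic sequence had median log2 ratios of -0.29, -0.10 and 0.23 in pairs 1, 2 and 3, and genes over 5 kb had medians of 0.25, 0.11 and -0.18. Proteasome transcripts are short, 26 of the 28 tested being under 2 kb. The 8 members under 1 kb had medians of -0.47, -0.15 and 0.47 in pairs 1, 2 and 3, further from 0 than all genes of that length. The 11 members of 1 to 1.5 kb had medians of -0.36, -0.20 and 0.22, where all genes had -0.19, -0.06 and 0.10. Rpn1 and Rpn2, the large scaffold subunits of the base, were the only members of 3 to 5 kb. Their medians were -0.41, 0.14 and 0.19, where all genes of that length had 0.13, 0.03 and -0.12. In pair 3 they differed in sign, with Rpn1 at 0.41 and Rpn2 at -0.04.

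Measured from the median of all genes in the same length bin, the members' median was -0.19 in pair 1, -0.05 in pair 2 and 0.17 in pair 3, with 23 of the 28 below it in pair 1 and 20 above it in pair 3. The core subunits were at -0.21 and 0.28 in pairs 1 and 3 and the regulatory subunits at -0.16 and 0.08. Within length bins the medians thus kept their signs at a smaller size. In a fit with each library centred by length, chosen after the data were seen, the median log2 fold change of the members was 0.00, with 14 lower and 14 higher where 48.3% of all genes were lower, and 0 were called. What part length had in the shift was not tested beyond these values.

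**Figure D4:**
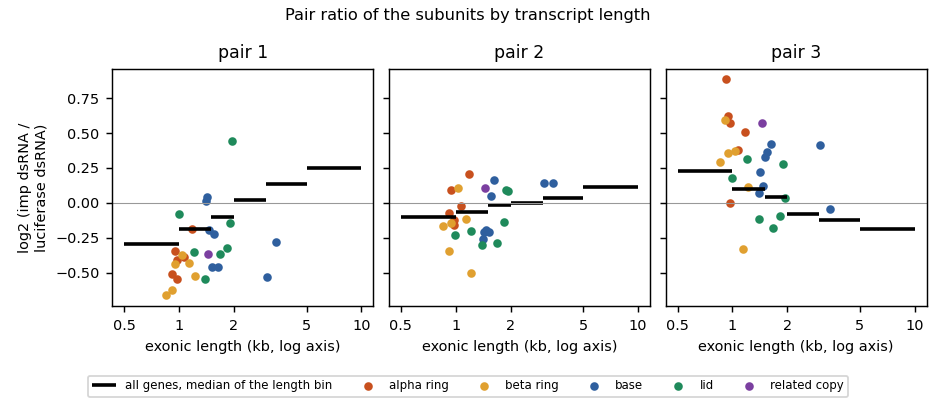
Log2 of imp dsRNA over luciferase dsRNA against exonic length (log axis) for the 28 tested subunits (points, coloured by subcomplex) in pairs 1, 2 and 3, with the median of all tested genes in 6 length bins as black lines, the outer bins drawn to 0.5 and 10 kb. The lines climb with length in pair 1, from -0.29 to 0.25, and descend in pair 3, from 0.23 to -0.18, and most points lie below the line in pair 1 and above it in pair 3.

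Because of this pattern the summary of the members depended on which pair was counted. Without replicate 3 of both treatments, 26 of the 28 members were lower after imp dsRNA, where 51.0% of all genes were, with a median log2 fold change of -0.22. In that fit 8 had an unadjusted p under 0.05, all of them lower, as were 6.64% of all genes. These were Prosbeta3, Prosbeta7, Prosbeta1, Rpn7, Prosalpha7, Rpt1, Rpn9 and Pros25, led by Prosbeta3 (FBgn0026380), a structural beta ring subunit, at -0.51 (standard error 0.16, unadjusted p 0.00156 by the edgeR test). Their smallest adjusted p was 0.105 by the edgeR test, so none passed, where 0.878% of all genes, 58 in number, did. That fit had fewer libraries and residual degrees of freedom than the main fit. The members' p-values there were close to those of a normal distribution for log2 fold change over standard error. Gene variances were thus treated as nearly known, so these p-values and calls are to be read with caution. Without replicate 1, 9 members were lower and 19 higher, with a median of 0.06, where 52.4% of all genes were lower. Leaving out luciferase replicate 1 alone, with no replicate block, gave 8 lower and 20 higher with a median of 0.08, where 49.9% of all genes were lower. Leaving out luciferase replicate 3 alone in the same way gave 25 lower with a median of -0.18, where 52.3% of all genes were lower.

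With both treatments averaged, most members were lower in replicates 2 and 3 than in replicate 1. Within the imp libraries this did not hold for replicate 3. The replicate numbers are not said to follow the order of the days. In the model with treatment as a term, 23 of the 28 were lower in replicate 2 than in replicate 1, where 52.7% of all genes were, and 23 were lower in replicate 3 than in replicate 1, where 52.3% of all genes were. The median log2 differences were -0.16 and -0.25. In that fit all 12 core subunits were lower in replicates 2 and 3 than in replicate 1, whereas 4 of the 7 lid subunits were lower in each. Within the treatments, 18 of the 28 members were lower in imp replicate 2 than in imp replicate 1, against 25 of the 28 for luciferase. In replicate 3, 9 of the 28 were lower than in replicate 1 after imp dsRNA, where 50.5% of all genes were, against 26 of the 28 after luciferase dsRNA, where 52.3% of all genes were. Of the 12 core subunits, 9 were lower in imp replicate 2 and 2 in imp replicate 3 than in imp replicate 1. After luciferase dsRNA all 12 were lower in replicates 2 and 3 than in replicate 1. Whether the days differed between the treatments was not tested. None passed the edgeR test between days at an adjusted p under 0.05, where 3.17% of all genes did, and 1 had an unadjusted p under 0.05, where 14.6% of all genes did. That 1 was Pros26.4 (FBgn0015282), which encodes the ATPase Rpt2.

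Pros26.4 stood at 226, 201 and 198 CPM after imp dsRNA and at 312, 180 and 148 CPM after luciferase dsRNA. It was highest in replicate 1 in both treatments, and the luciferase libraries varied more. Its log2 difference from replicate 1 was -0.50 in replicate 2 and -0.64 in replicate 3 (unadjusted p 0.0292, adjusted p 0.279 by the edgeR F test). Prosbeta5, with differences of -0.20 and -0.48 (unadjusted p 0.0730), and Prosbeta1, with -0.51 and -0.27 (unadjusted p 0.118), came next by the edgeR F test. Without replicate 3, 3 members passed between the 2 remaining days, where 13.1% of all genes did. They were Pros26.4 at an adjusted p of 0.0220, Prosbeta1 at 0.0174 and Prosbeta3 at 0.0222 by the edgeR test. These calls come from the fit above that treats gene variances as nearly known.

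The genes around the proteasome were read from lists of known function, and 0 of their members passed the test or had an unadjusted p under 0.05 between treatments. The 5 further subunits that stand under other symbols in the files are Mov34 (Rpn8), Tbp-1 (Rpt5), CG17331 (Prosbeta4), CG13349 (Rpn13) and CG13779 (Sem1). They were 3 lower and 2 higher, with a median log2 fold change of -0.03. CG17331, the missing beta ring subunit, stood at 116, 144 and 130 CPM after imp dsRNA, against 155, 135 and 106 CPM after luciferase dsRNA, highest in luciferase replicate 1 and lowest in luciferase replicate 3. Tbp-1, an ATPase of the base, was level at 215, 227 and 190 CPM after imp dsRNA, against 202, 230 and 222 CPM after luciferase dsRNA. In pair 1, 4 of the 5 were lower, and in pair 3, 3 of the 5 were higher.

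The COP9 signalosome, a complex built like the lid that removes Nedd8 from ubiquitin ligases, had 8 of its 9 listed genes tested, since CSN1a had 1 read in all. Of these, 5 were higher and 3 lower, with a median log2 fold change of 0.17, which was -0.0051 without replicate 3. In pair 1, 6 of the 8 were lower, and in pair 3, 7 were higher. Its largest value was that of alien, which encodes CSN2, at 90.9, 102 and 91.8 CPM after imp dsRNA, against 64.7, 89.6 and 77.9 CPM after luciferase dsRNA. The groups did not overlap, though imp replicate 1 at 90.9 CPM lay just above luciferase replicate 2 at 89.6 CPM. Every imp library lay above every luciferase library in 2 of the 8 genes, as in 2.8% of all genes. The log2 fold change of alien was 0.31 (95% interval -0.05 to 0.67, unadjusted p 0.0821 by the edgeR test).

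The 11 regulators, assembly factors and shuttle proteins were 5 higher and 6 lower, with a median of -0.03. Among them, cnc, which encodes the transcription factor that raises proteasome genes, stood at 99.2, 126 and 162 CPM after imp dsRNA, against 79.9, 115 and 151 CPM after luciferase dsRNA. The cnc transcript was higher in each pair, by less than it differed between days, and its log2 fold change was 0.18 (95% interval -0.15 to 0.52). Its day difference was 0.81 in replicate 3 over replicate 1 (unadjusted p 0.00325, adjusted p 0.0800 by the edgeR F test). In that fit 23 of the 28 members had a difference of the other sign. By treatment, 26 of the 28 were lower in luciferase replicate 3 than in luciferase replicate 1. Only 9 of the 28 were lower in imp replicate 3 than in imp replicate 1, whereas cnc was higher in replicate 3 in both treatments. Pomp, the chaperone that assembles the core, stood at 220.4, 120.1 and 201 CPM after imp dsRNA, against 289, 196 and 157 CPM after luciferase dsRNA, and had an unadjusted day p of 0.0294 by the same test. Uch-L3 (now Uch-L5), a deubiquitinase of the base, stood at 105, 76.8 and 76.9 CPM after imp dsRNA, against 136, 95.2 and 81.3 CPM after luciferase dsRNA, and had an unadjusted day p of 0.0194. Both followed the subunits in being highest in luciferase replicate 1.

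The 6 genes of ubiquitin supply were 4 higher and 2 lower, with a median of 0.03. The 4 genes of the p97 complex, which extracts substrates for the proteasome, were 2 higher and 2 lower, with a median of -0.06. The medians of the p97 genes turned between pairs as those of the subunits did. All 4 were lower in pair 1, where 50.3% of all genes were, with a median log2 ratio of -0.29. In pair 3, where 51.2% of all genes were lower, 3 of the 4 were higher, with a median of 0.18. Some of these ratios were near 0, such as Ufd1-like at -0.0064 in pair 1 and TER94 at 0.035 in pair 3. Of the 6 ubiquitin supply genes, 3 were lower in pair 1 and 4 higher in pair 3. RpL40, which encodes ubiquitin fused to a ribosomal protein, stood at 2559, 2488 and 3497 CPM after imp dsRNA, against 3971, 2396 and 2426 CPM after luciferase dsRNA. TER94, the p97 ATPase, stood at 345, 289 and 316 CPM after imp dsRNA, against 384, 348 and 309 CPM after luciferase dsRNA. Both were highest in luciferase replicate 1, and RpL40 is itself a short transcript. No other gene of ubiquitin supply was highest in that library, and eff and Ubi-p63E were lowest there. The eff transcript stood at 2665, 3178 and 2272 CPM after imp dsRNA, against 1377, 2677 and 2796 CPM after luciferase dsRNA.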

How the data were processed

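The study deposited 16 samples, of which the 6 knockdown RNA-seq libraries were used; the binding assays and their input libraries were not analysed here. The authors mapped reads with BWA-PSSM to dm3 together with the yeast genome and deposited raw counts per gene, counting reads on the gene's strand that overlapped no other gene. The library adapter carried a random barcode with which PCR duplicates can be collapsed, but neither whether this was done nor the mapping and DESeq versions is given in the sources used here. The symbol table also holds the authors' own DESeq comparison (group means, fold change, its log2 and p-values), which was not used. 1 row naming no gene held 0 counts (0%) and was left out, and 0 per-sample columns were unused. The fit used edgeR 4.0.16 in R 4.3.3: filterByExpr, TMM scaling, the replicate number as a block, the quasi-likelihood F test and Benjamini-Hochberg adjustment at a threshold of 0.05. Each standard error was taken as the log2 fold change, without sign, over the square root of F. The F test of the replicate terms of that fit compared the days. The block was used because the triplicates were made on different days and the supplement treats replicates as paired; deviations from the group means correlated at 0.48, 0.36 and 0.30 between same-numbered libraries. Pair ratios used a pseudocount of 1 CPM. Exonic lengths came from the BDGP6 annotation, a later build than dm3, in which all 31 members were found. Replicates differed beyond sampling noise (chi-square per degree of freedom 6.38 to 27.6), so none was counted as a repeat. The fit was tested on simulated counts with the same dispersion of 0.02 for every gene and no shift with length. That test therefore does not cover the length pattern of these libraries.

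Members, gene lists and the length check were chosen with earlier results of these data known. Named genes were Imp, the 3 members with the smallest p in each direction and the 3 between days, the catalytic subunits, the highest and lowest per length in each subcomplex and every member removed by the filter; other genes the text names, such as Prosalpha7, Rpn3, Prosbeta3 and alien, were chosen after their values were seen. Alternatives were DESeq2 size factors, no replicate block, no filter, at least 10 counts in every library, DESeq2 1.42.0, limma-voom (limma 3.58.1), each replicate left out and, added after seeing the data, single libraries left out and length-centred offsets over 20 bins. Figures were drawn in Python 3.11.15 with matplotlib 3.10.9.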

Additional observations from a re-analysis of the deposited data

How the results depend on the processing

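Under every alternative run, 0 members were called between treatments. Their median log2 fold change ran from -0.22 to 0.06 with a replicate left out in both treatments, from -0.18 to 0.08 with a single library left out and no replicate block, and was -0.05 without the replicate block, which called 0 genes. The count of all genes called between treatments, 0, became 4 with no filter and 1 by DESeq2, and ran from 0 to 58 with a replicate left out. Between days it was 207, and became 512 with no filter and 73 to 863 with a replicate left out, while the members called there ran from 0 to 3. Imp passed the threshold with no filter (-1.18, adjusted p 2.98e-06), by DESeq2 (-1.16, adjusted p 0.00018) and without replicate 3 (-1.35, adjusted p 1.57e-12), and ran from -1.35 to -1.02 with a replicate left out. Of the 14 named members, 8 changed sign in at least 1 setting. With a replicate left out, Prosalpha5 ran from -0.14 to 0.35, Pros25 from -0.31 to 0.41, Pros54 from -0.066 to 0.13, Rpn5 from -0.030 to 0.18, Prosbeta2 from -0.15 to 0.23, Pros26.4 from -0.18 to 0.28, Pros45 from -0.11 to 0.042 and Prosbeta1 from -0.44 to 0.064. Pros26.4 was at -0.031 without the replicate block and Pros45 at 0.011 with length-centred offsets. The causes were not tested. The smallest library, imp dsRNA replicate 2, held 1081882 counts and the fit had 2 residual degrees of freedom. Their part in the counts of calls was not tested.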
